A study of Mus musculus with 45 samples.

Results

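The cytosolic sulfotransferases described here are 8 genes of the mouse Sult family, Sult1a1, Sult1d1, Sult2a1, Sult2a2, Sult2a3, Sult3a1, Sult3a2 and Sult5a1. They are 8 of 21 Sult rows among 24946 usable genes in a liver RNA sequencing study of alcohol-associated liver disease. They were chosen from that family by their levels, with the difference between ethanol-labelled and control-labelled livers in view, so that difference is described below and not tested for them. Bulk RNA sequencing of whole liver lysate from WT mice gave 45 libraries. Ethanol-labelled mice at peak injury had 6 weeks of a Lieber-DeCarli ethanol diet, a liquid rodent feed that supplies part of its energy as ethanol. Ethanol-labelled mice at early resolution then had 3 days of the control version of this diet, and those at late resolution had 2 weeks of it. Control-labelled mice had the control diet for the first 6 weeks. The 3 days and 2 weeks of later control diet are listed by stage, for control-labelled as for ethanol-labelled libraries. No label describes the later feeding of control-labelled mice apart from that. Stage, diet label and sex label made 12 groups. Of the ethanol-labelled groups, male and female at peak and male at early resolution had 4 libraries, and female at early resolution and male and female at late resolution had 3. All 6 control-labelled groups had 4. Strain and age were not given in the sources used here, and no label states that replicates came from separate animals, so each p-value reflects only how libraries vary.

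Sulfotransferases of the cytosol move a sulfonate group from the donor PAPS (3'-phosphoadenosine-5'-phosphosulfate) to hydroxyl or amino groups of small molecules, which makes most of them more water-soluble and easier to excrete. The liver makes PAPS from inorganic sulfate with the PAPS synthases and draws that sulfate from the blood and from the breakdown of cysteine. Subfamilies differ in what they accept: Sult1 enzymes act mainly on phenols and catechols, Sult2a enzymes on hydroxysteroids and bile acids, and mouse Sult3a1 on amines. In adult mouse liver, transcripts of the Sult2a1 and Sult3a1 type are known to be more abundant in females than in males, under control of the sex-specific rhythm of growth hormone.

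The transcripts that mark sex did not follow the sex labels. Xist, the RNA of the inactive X chromosome (chromosome X, 103460366 to 103483254, minus strand, mm10), stood at 13.7 to 51.8 TPM in all 21 ethanol-labelled libraries, and Y-linked Eif2s3y (chromosome Y, 1010543 to 1028847, plus strand) at 0 to 0.0386 TPM. In 23 of 24 control-labelled libraries Xist stood at 0.00165 to 0.349 TPM and Eif2s3y at 7.83 to 12.7 TPM. Late control female 1 was unlike them: Xist stood at 39.5 TPM there and Eif2s3y was listed at 0. Ddx3y, Kdm5d and Uty, also Y-linked, together with Eif2s3y passed 1 TPM in the same 23 libraries and in no ethanol-labelled library, so these transcripts went against the sex label in 22 of 45 libraries. Diet label and sex-chromosome transcripts therefore cannot be told apart. Groups are kept as labelled, and "male" and "female" below are labels. Values were taken as TPM, which divides by transcript length and has the same column sum throughout. Neither the depth nor the counting error of a library is therefore known. Hepatocyte markers (Alb, Apoa1, Ttr, Serpina1a and Tat, 5 of 5 in the table) summed to 137464 to 181188 TPM in ethanol-labelled and 117035 to 151118 TPM in control-labelled livers at peak, and to 134107 to 188788 and 74971 to 154312 TPM at early resolution. At late resolution they summed to 174042 to 199346 TPM in ethanol-labelled livers and 101289 to 147344 TPM in control-labelled livers other than late control female 1 (179297 TPM), without overlap. Of these 5 markers Alb, the albumin gene, was called higher at early resolution, with 0.70 ± 0.14 (SE, adjusted p = 0.000434). At late resolution 3 were called with and without late control female 1. Without it Alb differed by 0.73 (adjusted p = 0.000205), Apoa1 by 0.57 (adjusted p = 0.0227) and Tat, which was lower, by -1.14 (adjusted p = 0.00641). The cholangiocyte markers Krt19, Krt7, Epcam and Sox9 summed to 0.927 to 5.60 TPM over the 45 libraries. Markers of Kupffer cells (Clec4f, Vsig4, Adgre1 and C1qa) summed to 92.5 to 317 TPM in ethanol-labelled and 73.2 to 344 TPM in control-labelled libraries, those of T and NK cells (Cd3d, Cd3e and Nkg7) to 2.02 to 9.49 and 0.894 to 5.28 TPM, those of B cells to 1.37 to 30.5 and 0.60 to 7.17 TPM, and those of stellate cells to 64.4 to 135 and 28.6 to 97.9 TPM; the part of these cells in the differences by diet label was not tested. In bulk liver, fewer cells of a type and less RNA per cell cannot be told apart.

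The labels differed in the make-up of the family as well as in its summed level. The 8 genes together held 1138 to 4250.5 TPM with a median of 2959 in the 21 ethanol-labelled livers, and 483 to 1285 TPM with a median of 847 in the 23 control-labelled livers other than late control female 1. The phenol sulfotransferase Sult1a1 made up 32.8% to 75.5% of that sum in ethanol-labelled livers and 93.4% to 98.7% in those control-labelled livers. Sult2a1, Sult2a2 and Sult2a3 together made up 22.2% to 66.0% in ethanol-labelled livers and 0% to 3.59% in those control-labelled livers. Late control female 1 held 2789 TPM, with 59.7% from the Sult2a genes, inside the range of the ethanol-labelled livers. In the order of mean TPM over ethanol-labelled livers, the members ran Sult1a1, Sult2a2, Sult2a1, Sult2a3, Sult3a1, Sult5a1, Sult1d1 and Sult3a2. Levels of different genes compare only if the values are length-corrected. Sult2a2 exceeded Sult2a1, and Sult2a1 exceeded Sult2a3, in each of the 21 livers. The ranges of Sult1a1 and Sult2a2, 859 to 1763 and 151 to 1218 TPM, overlapped, and likewise Sult3a1 and Sult5a1 had overlapping ranges of 0.397 to 44.1 and 4.01 to 31.3 TPM.

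**Figure D1:**
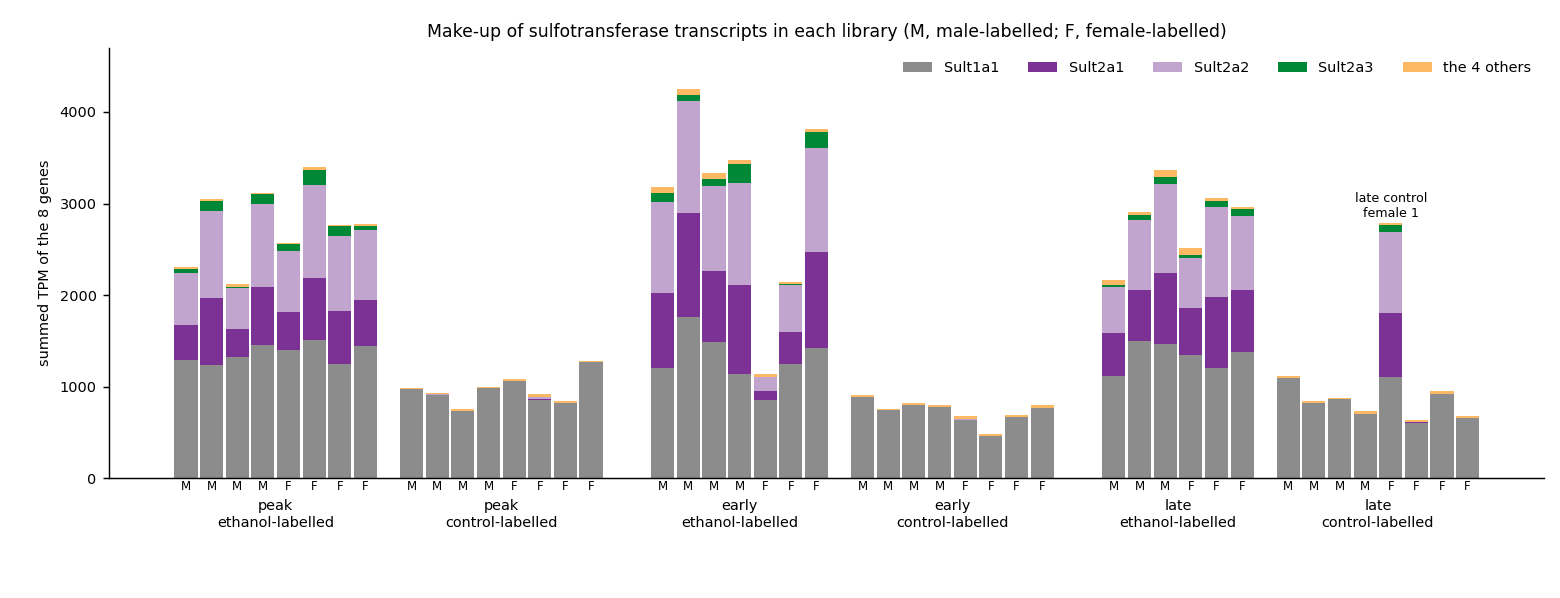
Summed TPM of the 8 sulfotransferase genes in each of the 45 libraries, stacked by gene, with ethanol-labelled left of control-labelled livers at each stage and male-labelled (M) left of female-labelled (F). Sult1a1 fills nearly the whole bar in 23 control-labelled livers, and the Sult2a genes add 22.2% to 66.0% in ethanol-labelled livers and 59.7% in late control female 1.

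**Figure D2:**
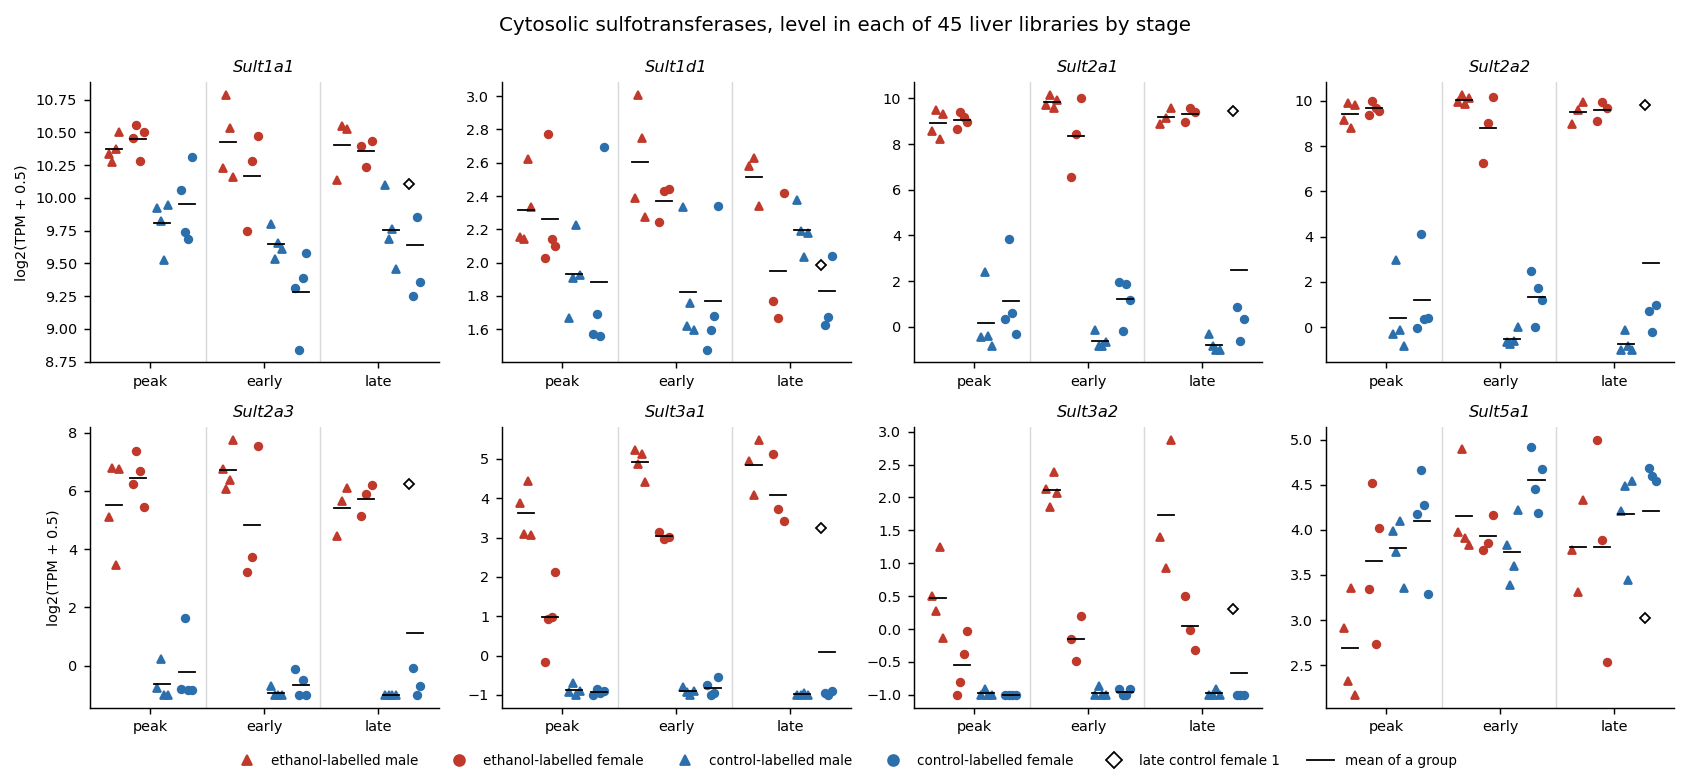
Level of each member as log2(TPM + 0.5) in every library, by stage, with ethanol-labelled (red) left of control-labelled (blue) groups and male-labelled (triangles) left of female-labelled (circles); lines are group means over 3 or 4 libraries and the open diamond is late control female 1. The Sult2a genes separate the diet labels by several units, Sult3a1 and Sult3a2 also vary with sex label and stage among the red points, and Sult5a1 overlaps throughout.

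Differences were tested with limma on log2(TPM + 0.5) in 11244 genes whose mean reached 0.5 TPM. Below, a gene counts as called when its p after Benjamini-Hochberg adjustment is under 0.05. All 8 members passed that filter. Sult3a2, with a mean of 0.764 TPM over all libraries, passed through the ethanol-labelled livers alone, since its mean over control-labelled livers was 0.0379 TPM. So did Sult3a1, with 0.407 TPM over control-labelled livers. For Sult3a2 these were mainly the male ethanol-labelled livers, where it was high. Sult2a3 had 3.36 TPM over them, most of it from late control female 1 (75.7 TPM). TPM were also rescaled by medians of ratios. That moved the median difference over all genes by more than 0.1 on the log2 scale in 7 comparisons, most of all between sex labels in ethanol-labelled livers at peak, where the all-gene median was -0.39 as deposited and 0.0088 rescaled. The other 6 all-gene medians as deposited were -0.19 and 0.10 between sex labels in control-labelled livers at peak and late resolution, 0.16 and 0.14 at early and late resolution relative to peak in ethanol-labelled livers, 0.14 at late resolution relative to peak in control-labelled livers, and 0.13 between diet labels at early resolution. Rescaled values, with an all-gene median near 0, are therefore given beside many of those as deposited.

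Sult1a1 (chromosome 7, 126672865 to 126676432, minus strand, GENCODE M21 on mm10), which sulfonates simple phenols and many drugs, was the most abundant member and had the smallest relative spread among ethanol-labelled livers, 1335 ± 186 TPM (SD, n = 21). Male ethanol-labelled livers had 1288, 1237, 1329 and 1451 TPM at peak, and female ethanol-labelled livers had 1407, 1507, 1245 and 1447 TPM. Male control-labelled livers had 971, 906, 738 and 984 TPM at peak, and female control-labelled livers 1065, 856, 824 and 1268 TPM. Only peak control female 4 among these controls reached the range of the ethanol-labelled livers. The ethanol minus control difference was 0.53, 0.83 and 0.68 on the log2 scale at peak, early and late resolution, against all-gene medians of 0.054, 0.13 and 0.052. These 3 comparisons called 3049 of 11244 genes (27.1%), 1880 of 11244 genes (16.7%) and 1440 of 11244 genes (12.8%); the members were chosen with them known, and nothing is read from them. At early resolution ethanol-labelled livers had 859 to 1763 TPM with a median of 1244, and control-labelled livers 458 to 892 TPM with a median of 753. Early ethanol female 1, at 859 TPM, was the one ethanol-labelled liver inside the control range. At late resolution ethanol-labelled livers had 1122 to 1496 TPM with a median of 1363, and control-labelled livers 609 to 1103 TPM with a median of 845, with no overlap.

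Sult1a1 did not pass the test between sex labels or between stages. The male minus female difference in ethanol-labelled livers was -0.079 ± 0.18 (SE, adjusted p = 0.727) at peak, with an interval of -0.44 to 0.28, and 0.39 (adjusted p = 0.117) rescaled. It was 0.26 ± 0.19 (SE, adjusted p = 0.782) at early and 0.047 ± 0.21 (SE, adjusted p = 0.945) at late resolution. The early minus peak difference was -0.11 ± 0.13 (SE, adjusted p = 0.539) in ethanol-labelled livers and -0.41 ± 0.13 (SE, adjusted p = 0.110) in control-labelled livers. Rescaled, the control-labelled difference was -0.52 (adjusted p = 0.0348), past the threshold, in livers that had 458 to 892 TPM with a median of 753 at early resolution and 738 to 1268 TPM with a median of 938 at peak. Sult1d1 (chromosome 5, 87554645 to 87569027, minus strand), which in mice sulfonates dopamine and other catechols, was a low-level gene. It had 2.68 to 7.54 TPM with a median of 4.57 in ethanol-labelled livers and 2.28 to 5.99 TPM with a median of 3.07 in control-labelled livers, and the labels overlapped at each stage. Its ethanol minus control difference was 0.38, 0.69 and 0.22 at the 3 stages. Between sex labels in ethanol-labelled livers it differed by 0.053 ± 0.22 (SE, adjusted p = 0.852) at peak, 0.23 ± 0.24 (SE, adjusted p = 0.835) at early and 0.57 ± 0.25 (SE, adjusted p = 0.378) at late resolution, none of them called.

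Sult2a1, Sult2a2 and Sult2a3 encode hydroxysteroid sulfotransferases, which act on dehydroepiandrosterone and bile acids, and lie within a cluster of Sult2a genes on chromosome 7 (Sult2a2 at 13733505 to 13779636 on the plus strand, Sult2a1 at 13796246 to 13837409 and Sult2a3 at 14067446 to 14123044 on the minus strand). Male ethanol-labelled livers had 387, 727, 302 and 642 TPM of Sult2a1 at peak, and female ethanol-labelled livers 411, 676, 579 and 503 TPM. Male control-labelled livers had 0.237, 4.71, 0.266 and 0.0541 TPM and female control-labelled livers 0.788, 13.7, 1.01 and 0.308 TPM. The lowest ethanol-labelled liver at peak was thus far above the highest control-labelled one. At early resolution male ethanol-labelled livers had 827, 1135, 778 and 969 TPM, and female ethanol-labelled livers 92.9, 349 and 1050.3 TPM. Male control-labelled livers had 0.409, 0.0624, 0.0621 and 0.133 TPM, and female control-labelled livers 3.43, 0.375, 3.14 and 1.78 TPM. Again the labels did not overlap, although the 3 female ethanol-labelled livers were spread more widely than the 4 male ones. At late resolution male ethanol-labelled livers had 469, 563 and 772 TPM, and female ethanol-labelled livers 509, 776 and 678 TPM. Male control-labelled livers had 0.316, 0.0530, 0 and 0 TPM, and female control-labelled livers 705, 1.31, 0.143 and 0.773 TPM, where the first value is late control female 1. Without that library the labels did not overlap.

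Sult2a2 moved with Sult2a1 and stood a little higher. It had 151 to 1218 TPM with a median of 826 in ethanol-labelled livers and 0 to 16.6 TPM with a median of 0.461 in control-labelled livers without late control female 1, which had 886 TPM. Its ratio to Sult2a1 was 1.07 to 1.62 in all 21 ethanol-labelled livers, a narrow band beside the spread of either gene. By group this ratio had a median of 1.44 in male and 1.51 in female ethanol-labelled livers at peak, of 1.17 and 1.47 at early resolution, and of 1.27 and 1.19 at late resolution, with no one order of the sex labels over the stages. Sult2a3 was lower and more variable, at 8.69 to 213 TPM with a median of 68.5 in ethanol-labelled livers. Its ratio to Sult2a1 ran from 0.0346 to 0.245 there, with the lowest level, 8.69 TPM, in early ethanol female 1. In control-labelled livers Sult2a3 was listed at 0 in 12 of 24 and reached 2.60 TPM at most outside late control female 1, which had 75.7 TPM.

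On the log2 scale the ethanol minus control difference of Sult2a1 was 8.34, 8.80 and 8.41 at peak, early and late resolution, and that of Sult2a2 was 8.73, 9.0 and 8.49. Sult2a3 differed by 6.40, 6.56 and 5.51. Leaving out late control female 1 moved the late values to 9.57 for Sult2a1, 9.66 for Sult2a2 and 6.36 for Sult2a3. The pseudocount compresses such differences where controls are near 0. The transcripts also resemble each other. Of the 50-base words of annotated Sult2a2 transcripts 62.1% recur in another Sult gene, against 33.2% for Sult2a1 and 8.36% for Sult2a3, so the split of reads between Sult2a1 and Sult2a2 is uncertain.

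Among ethanol-labelled livers none of the 3 Sult2a members was called by sex label or by stage. The male minus female difference of Sult2a1 was -0.14 ± 1.13 (SE, adjusted p = 0.924) at peak, 1.5 ± 1.22 (SE, adjusted p = 0.799) at early and -0.13 ± 1.31 (SE, adjusted p = 0.982) at late resolution. The intervals were wide, -2.44 to 2.15, -0.98 to 3.98 and -2.78 to 2.52, and their width rested in part on a library outside these groups. Without late control female 1 in the fit they were -1.45 to 1.17, 0.083 to 2.91 and -1.64 to 1.38 around the same differences, the SE at late resolution was 0.75, and none of the 3 members was called by sex label or by stage. The early minus peak difference was 0.10 ± 0.83 (SE, adjusted p = 0.943), with an interval of -1.59 to 1.79, and the late minus peak difference was 0.28 ± 0.87 (SE, adjusted p = 0.849), with -1.48 to 2.03. Sult2a1 had 302 to 727 TPM with a median of 541 at peak, 92.9 to 1135 TPM with a median of 827 after 3 days and 469 to 776 TPM with a median of 620.1 after 2 weeks of control diet. For Sult2a2 the stage differences were -0.12 ± 0.84 (SE, adjusted p = 0.934) and -0.0063 ± 0.88 (SE, adjusted p = 0.997), and for Sult2a3 -0.21 ± 0.70 (SE, adjusted p = 0.849) and -0.41 ± 0.73 (SE, adjusted p = 0.718). The 3 female ethanol-labelled livers at early resolution were the most uneven of the ethanol-labelled groups for Sult2a1. Neutrophil markers (S100a8, S100a9 and Ly6g, summed) stood at 86.1, 28.7 and 5.53 TPM in females 1, 2 and 3, where Sult2a1 stood at 92.9, 349 and 1050.3 TPM; the part of these cells in the result was not tested.

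In control-labelled livers the traces of Sult2a1 ran beside traces of Xist. The 5 highest Sult2a1 values after late control female 1 were in peak control female 2 (13.7 TPM), peak control male 2 (4.71 TPM), early control female 1 (3.43 TPM), early control female 3 (3.14 TPM) and early control female 4 (1.78 TPM). In the same order Xist stood at 0.349, 0.135, 0.144, 0.0491 and 0.169 TPM, and 4 of these 5 libraries also held the 4 highest Xist values after late control female 1. Early control female 3 ranked 7 of 24 for Xist. At the other end, late control male 3 and late control male 4 had Sult2a1 listed at 0 and Xist at 0.00312 and 0.00179 TPM. The ratio of Sult2a1 to Xist was 2.94 to 32.1 with a median of 20.1 in ethanol-labelled livers, and 17.8 in late control female 1. In the other 23 control-labelled livers it ran more widely, from 0 to 161 with a median of 23.8. Whether RNA of other livers reached these libraries was not tested. Within control-labelled livers the male minus female difference of Sult2a1 was -0.94 ± 1.13 (SE, adjusted p = 0.648) at peak, -1.82 ± 1.13 (SE, adjusted p = 0.646) at early and -3.29 ± 1.13 (SE, adjusted p = 0.0990) at late resolution, none of them called. Without late control female 1 the late difference was -0.98 (limma, adjusted p = 0.407), and without late control female 2 it was -3.84 (adjusted p = 0.0475). For Sult2a2 the late difference was -3.55 ± 1.15 (SE, adjusted p = 0.0858), -1.22 (adjusted p = 0.301) without late control female 1 and -4.25 (adjusted p = 0.0354) without late control female 2.

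**Figure D3:**
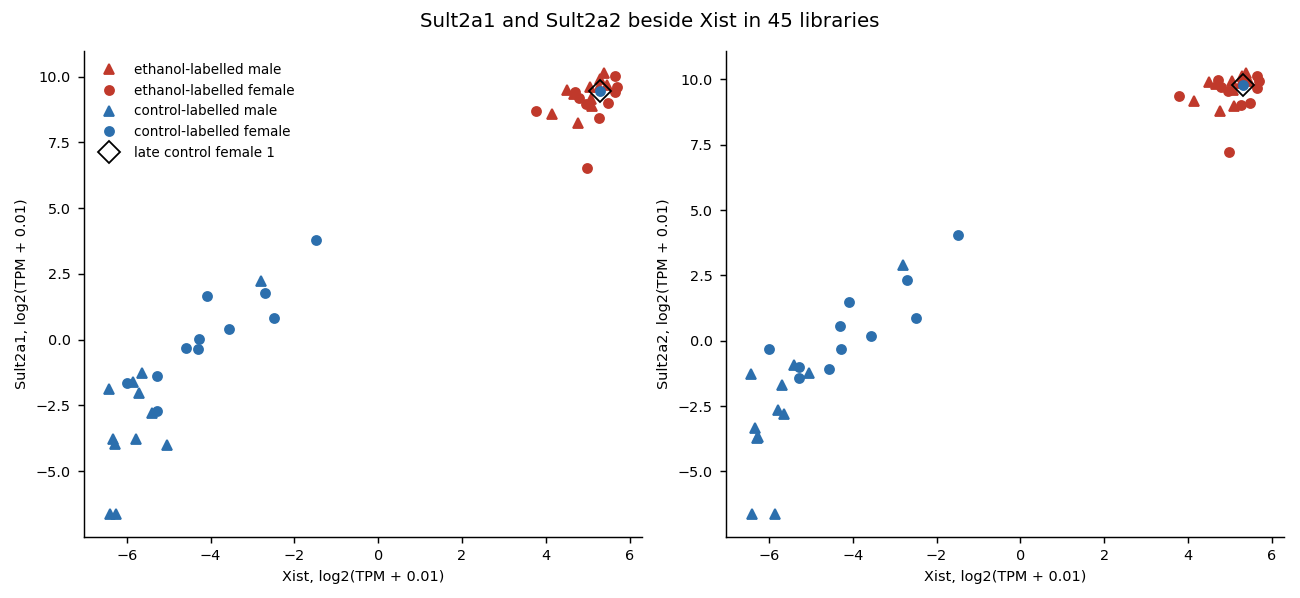
Sult2a1 (left) and Sult2a2 (right) against Xist in 45 libraries, each as log2(TPM + 0.01), ethanol-labelled in red, control-labelled in blue, triangles male-labelled and circles female-labelled. Late control female 1, in the diamond, lies among the ethanol-labelled livers with 705 TPM of Sult2a1, and among the other control-labelled livers those with more Xist, such as peak control female 2, lie higher.

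The region before the start of Sult2a3 is printed beside that of Sult2a5, another hydroxysteroid sulfotransferase gene of the cluster. Among genes outside the members with a mean of at least 5 TPM, levels of Sult2a5 ran closest to Sult2a3 over the 45 libraries. The tables of RefSeq (build GRCm38.p6) held 6 of the 8 members, with Sult2a1 and Sult2a2 not among them. The 250 bases before each start lie at chr7:14123049-14123298 on the minus strand and chr7:13623717-13623966 on the plus strand. Capitals mark the longest run of bases the pair share, which is 31 bases long and was present in 2 of 32851 RefSeq regions of this length (0.00609%), searched on both strands. Those 2 are the pair from which the run was taken, so the count does not measure how particular the run is. That count takes exact matches only, and the region of Sult2a4, also in the cluster, held nearly the same run.
Sult2a3: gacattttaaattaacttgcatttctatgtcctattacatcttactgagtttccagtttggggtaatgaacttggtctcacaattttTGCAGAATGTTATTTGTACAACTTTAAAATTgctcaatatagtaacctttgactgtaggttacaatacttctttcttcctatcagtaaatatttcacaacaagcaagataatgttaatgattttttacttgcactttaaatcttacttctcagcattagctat
Sult2a5: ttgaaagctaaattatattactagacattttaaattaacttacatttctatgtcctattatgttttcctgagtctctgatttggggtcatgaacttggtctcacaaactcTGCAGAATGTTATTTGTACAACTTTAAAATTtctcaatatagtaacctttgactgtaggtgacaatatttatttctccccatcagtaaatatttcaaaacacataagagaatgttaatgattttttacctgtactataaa
Aligned end to end, the pair were identical over 73.3% of the alignment, above every other pair of different Sult genes in the table. Sult2a3 and Sult2a6 followed at 70.2%, although Sult2a6 averaged only 0.0225 TPM. Neither Sult2a3 nor Sult2a5 held AGGTCA, a nuclear receptor half-site, or TTCNNNGAA, the pattern bound by STAT factors, on either strand. These were present in 14.0% and 7.02% of all such regions. Sult2a5 held TATAAA once and Sult2a3 did not. A pattern of letters describes the window only.

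Sult3a1 and Sult3a2 differed by sex label and by stage among ethanol-labelled livers. Sult3a1 (chromosome 10, 33857721 to 33879532, plus strand) encodes a mouse sulfotransferase of amines, and Sult3a2 (chromosome 10, 33766424 to 33786704, minus strand) is its neighbour, with 7.72% of its 50-base words shared with Sult3a1. At peak, male ethanol-labelled livers had 14.3, 8.06, 21.1 and 7.85 TPM of Sult3a1, against 0.397, 1.40, 1.48 and 3.83 TPM in female ethanol-labelled livers. Every male value exceeded every female value. The difference was 2.65 ± 0.53 (SE, adjusted p = 0.000309) by limma as deposited and 3.05 (adjusted p = 0.000123) rescaled, and it held without any single library. At early resolution male ethanol-labelled livers had 36.8, 28.6, 34.7 and 20.9 TPM, against 8.34, 7.25 and 7.60 TPM in female ethanol-labelled livers, again without overlap. That difference of 1.87 ± 0.57 (SE, adjusted p = 0.305) was not called, although without late control female 1 in the fit it was, at the same size and an adjusted p of 0.00585. At late resolution male ethanol-labelled livers had 30.5, 16.5 and 44.1 TPM and female ethanol-labelled livers 34.3, 12.7 and 10.2 TPM. These overlapped, with a difference of 0.75 ± 0.61 (SE, adjusted p = 0.617) and an interval of -0.49 to 1.99.

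Sult3a2 was less abundant and stood higher in male ethanol-labelled livers at all 3 stages. It passed the filter mainly through those livers, most of all at the later stages. Its p-values by sex label and by stage are therefore given as description. With no filter these calls of Sult3a2 were the same. Male ethanol-labelled livers had 0.914, 0.710, 1.87 and 0.415 TPM at peak, against 0, 0.0753, 0.265 and 0.478 TPM in female ethanol-labelled livers. One female liver, peak ethanol female 4, lay inside the male range, and the difference was 1.03 ± 0.28 (SE, adjusted p = 0.00420) as deposited and 1.25 (adjusted p = 0.00149) rescaled. At early resolution male ethanol-labelled livers had 3.88, 3.12, 4.71 and 3.70 TPM, against 0.399, 0.218 and 0.647 TPM in female ethanol-labelled livers, a difference of 2.25 ± 0.31 (SE, adjusted p = 0.000115). At late resolution male ethanol-labelled livers had 2.13, 1.40 and 6.81 TPM, against 0.912, 0.488 and 0.301 TPM in female ethanol-labelled livers. The groups did not overlap at either later stage. The late difference of 1.68 ± 0.33 (SE, adjusted p = 0.0125) lost its call without late ethanol male 3, which left 1.11 (adjusted p = 0.166). It was also lost with a pseudocount of 0.1 TPM, at 2.20 (adjusted p = 0.0783), and with the late libraries fitted alone (adjusted p = 0.175). Its ratio to Sult3a1 had a median of 0.122 in male and 0.0478 in female ethanol-labelled livers at early resolution, of 0.0852 and 0.0295 at late resolution, and of 0.0760 and 0.0893 at peak, so its order between sex labels at peak was the opposite one.

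Both genes were higher at the later stages than at peak in ethanol-labelled livers. Sult3a1 had 0.397 to 21.1 TPM with a median of 5.84 at peak, 7.25 to 36.8 TPM with a median of 20.9 at early and 10.2 to 44.1 TPM with a median of 23.5 at late resolution. It rose by 1.68 ± 0.39 (SE, adjusted p = 0.00241) at early resolution relative to peak, and by 2.17 ± 0.40 (SE, adjusted p = 0.000419) at late resolution, or 1.46 (adjusted p = 0.00628) and 1.97 (adjusted p = 0.000710) rescaled. Female livers did not overlap between these stages, since none fell below 7.25 TPM later or passed 3.83 TPM at peak. Sult3a2 rose by 1.02 ± 0.21 (SE, adjusted p = 0.000863) at early and 0.93 ± 0.22 (SE, adjusted p = 0.00270) at late resolution, or 0.83 (adjusted p = 0.00378) and 0.78 (adjusted p = 0.00825) rescaled, and no single library ended these 4 calls. In control-labelled livers Sult3a1 was at most 0.182 TPM outside late control female 1, which had 9.0 TPM, and Sult3a2 at most 0.0468 TPM beside 0.738 TPM. The ethanol minus control difference was 3.20, 4.84 and 4.91 for Sult3a1 at the 3 stages and 0.95, 1.94 and 1.72 for Sult3a2.

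As deposited, sums of cell markers differed by sex label at peak. Neutrophil markers summed to 87.1 to 129 TPM in male and 6.16 to 35.6 TPM in female ethanol-labelled livers, and the 4 endothelial markers (Pecam1, Cdh5, Stab2 and Clec4g) to 61.2 to 142 and 175 to 221 TPM. These sums were not rescaled. The all-gene median of this comparison was -0.39 as deposited and 0.0088 rescaled, so the endothelial gap depends on the scaling. At early resolution neutrophil markers stood at 2.63 to 10.7 TPM in male and 5.53 to 86.1 TPM in female ethanol-labelled livers. The part of these cells in the Sult3a differences was not tested.

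The 250 bases before the RefSeq starts of this pair are printed because both genes differed by sex label and stage while their levels differed. They lie at chr10:33857472-33857721 on the plus strand and chr10:33782116-33782365 on the minus strand (GRCm38.p6), the second inside the gene as GENCODE annotates it. Capitals mark TTCNNNGAA in Sult3a1, found once, from base 109 to 101 before the start, and TATAAA in Sult3a2, found 2 times, once on each strand.
Sult3a1: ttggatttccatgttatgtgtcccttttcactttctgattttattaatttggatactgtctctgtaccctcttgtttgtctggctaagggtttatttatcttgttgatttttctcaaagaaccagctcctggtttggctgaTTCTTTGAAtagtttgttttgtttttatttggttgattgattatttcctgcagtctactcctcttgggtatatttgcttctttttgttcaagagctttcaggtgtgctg
Sult3a2: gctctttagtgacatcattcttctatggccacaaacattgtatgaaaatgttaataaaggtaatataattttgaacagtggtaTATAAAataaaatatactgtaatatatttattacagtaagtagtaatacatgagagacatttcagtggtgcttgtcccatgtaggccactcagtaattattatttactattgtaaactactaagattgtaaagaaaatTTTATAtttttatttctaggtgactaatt
Of 32851 RefSeq regions of the same length, 7.02% held TTCNNNGAA and 12.4% held TATAAA on either strand. Of the 6 members in the table only Sult3a1 held the first pattern. Of 3 more patterns searched on both strands, ATTGATTA (in 0.557% of the regions) was found once, in Sult3a1, and TTACATAA (0.819%) and ATCGAT (0.728%) in none of the 6. No factor's binding was measured.

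**Figure D4:**
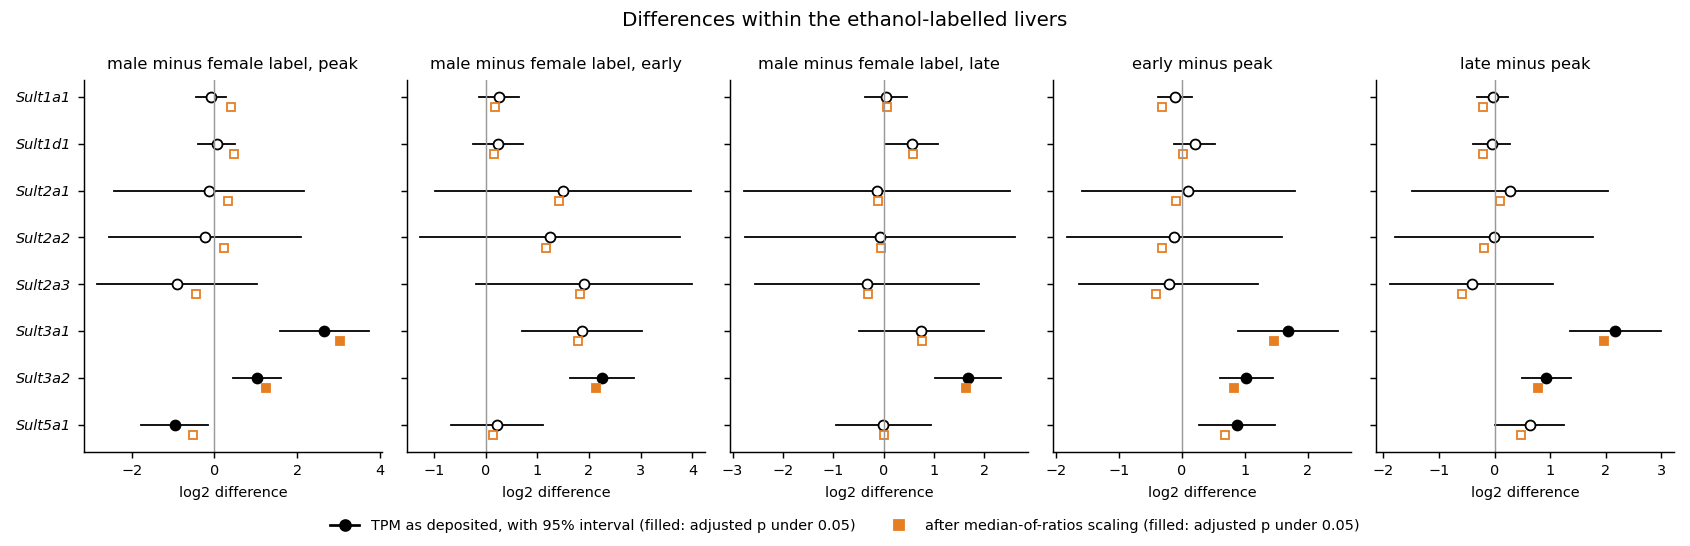
Log2 differences of the 8 members within ethanol-labelled livers, for male minus female label at 3 stages and for early and late minus peak; black circles are TPM as deposited with 95% intervals, orange squares are rescaled by medians of ratios, and filled symbols have an adjusted p under 0.05. Sult3a2 is filled in all 5 panels and Sult3a1 in 3, with values of 2.65, 1.68 and 2.17, while the Sult2a genes have intervals that all span 0.

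Sult5a1 (chromosome 8, 123140192 to 123158315, minus strand), whose substrates are less well known, went the other way by diet label and overlapped between labels at each stage. At peak, male ethanol-labelled livers had 7.03, 4.52, 9.70 and 4.01 TPM and female ethanol-labelled livers 9.64, 22.5, 6.18 and 15.7 TPM. Male control-labelled livers had 15.4, 13, 16.6 and 9.73 TPM and female control-labelled livers 17.5, 24.8, 18.9 and 9.30 TPM. The ethanol minus control difference was -0.78, -0.11 and -0.38 at peak, early and late resolution. Late control female 1, with 7.63 TPM, lay below the other 3 late female controls at 25.3, 23.6 and 22.7 TPM. Between sex labels in ethanol-labelled livers at peak the difference of -0.96 ± 0.40 (SE, adjusted p = 0.0458) was -0.52 (adjusted p = 0.381) rescaled, no longer called, and the call was also lost on leaving out any of 6 of the 8 libraries compared, one at a time. The early minus peak difference of 0.87 ± 0.30 (SE, adjusted p = 0.0286) was 0.68 (adjusted p = 0.112) rescaled, and the call was lost without any of 6 single libraries. The late minus peak difference was 0.63 ± 0.31 (SE, adjusted p = 0.132), and 0.95 (adjusted p = 0.0244) without late ethanol female 3.

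Set against all genes, the members' calls by sex label at peak were no more frequent than elsewhere. In ethanol-labelled livers at peak 3 of 8 members were called, 2 higher and 1 lower in male livers (2 and 0 rescaled), where 5559 of 11244 genes (49.4%) were called, with 8.58% of calls higher as deposited, and 49.7% of 3536 rescaled. At early resolution 1 of 8 was called, higher, beside 20 of 11244 genes (0.178%), with 80.0% of calls higher as deposited, and 80.0% of 30 rescaled. At late resolution 1 of 8 was called, higher, beside 57 of 11244 genes (0.507%), with 68.4% of calls higher as deposited, and 70.6% of 85 rescaled. At both later stages this member was Sult3a2, which passed the filter mainly through male ethanol-labelled livers. In control-labelled livers 0 of 8 members were called by limma at any stage, with 5 of 24 differences at an unadjusted p under 0.05. Over all genes in these livers, 2205, 1079 and 2561 of 11244 had such a p at peak, early and late resolution. There 326 of 11244 genes (2.9%) were called at peak, with 12.3% of calls higher as deposited, and 43.1% of 346 rescaled. At early resolution 17 of 11244 genes (0.151%) were called, with 52.9% of calls higher as deposited, and 39.4% of 99 rescaled, and at late resolution 105 of 11244 genes (0.934%), with 85.7% of calls higher as deposited, and 68.6% of 487 rescaled.

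By stage, 3 of 8 members were called at early resolution relative to peak in ethanol-labelled livers, all higher (2 rescaled), beside 2984 of 11244 genes (26.5%), with 81.2% of calls higher as deposited, and 45.2% of 2990 rescaled. Their median difference was 0.15, and that of all genes was 0.16. At late resolution 2 of 8 were called, both higher, beside 2475 of 11244 genes (22%), with 79.4% of calls higher as deposited, and 50.1% of 2786 rescaled, and medians of 0.14 for the members and 0.14 for all genes. These shares are near those of all genes. In control-labelled livers 0 of 8 members were called by limma at early resolution relative to peak (1 lower rescaled, Sult1a1), beside 82 of 11244 genes (0.729%), with 47.6% of calls higher as deposited, and 29.8% of 262 rescaled, and 0 of 8 at late resolution, beside 76 of 11244 genes (0.676%), with 89.5% of calls higher as deposited, and 23.9% of 142 rescaled. Of those 16 differences 1 had an unadjusted p under 0.05, where 1364 of 11244 genes had one at early and 2810 at late resolution.

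The other Sult genes were also tested by diet label. They are the rest of a family whose members were chosen with that difference in view. Their p-values therefore do not come from an unselected set and are given as description. Of 13 such rows 6 passed the filter, and the call counts were 4 higher and 1 lower at peak, 3 higher and 1 lower at early, and 3 higher and 1 lower at late resolution. Over all genes 27.1%, 16.7% and 12.8% were called in these comparisons. Sult2a5 (chromosome 7, 13623967 to 13670807, plus strand), in the Sult2a cluster, had 1.92 to 72.0 TPM with a median of 36.5 in ethanol-labelled livers and 0 to 0.543 TPM with a median of 0 in control-labelled livers without late control female 1, which had 40.7 TPM. It was higher by 5.97 ± 0.54 (SE, adjusted p = 1.0e-10), 5.41 ± 0.56 (SE, adjusted p = 3.5e-09) and 4.81 ± 0.58 (SE, adjusted p = 1.7e-07) at the 3 stages, and at late resolution by 5.57 without late control female 1. Sult2a5 passed the filter through the ethanol-labelled livers and late control female 1, where it was high. Of its 50-base words 34.5% recur in another Sult gene, so part of its reads may be assigned to its neighbours or theirs to it. Sult2a7 (chromosome 7, 14465051 to 14494230, minus strand), which shares no such word, was higher by 1.55 ± 0.27 (SE, adjusted p = 3.8e-05), 1.49 ± 0.28 (SE, adjusted p = 0.000216) and 1.52 ± 0.29 (SE, adjusted p = 0.000363). Sult1c2 was higher by 1.53 ± 0.34 (SE, adjusted p = 0.000880), 1.71 ± 0.35 (SE, adjusted p = 0.000757) and 1.81 ± 0.37 (SE, adjusted p = 0.000769).

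Sult2a8 (chromosome 7, 14410686 to 14446769, minus strand), a bile acid sulfotransferase of mice, lies in the same cluster and fell. It had 36.4 to 80.6 TPM with a median of 51.5 in ethanol-labelled livers at peak and 110.3 to 197 TPM with a median of 144 in control-labelled livers, without overlap. The difference was -1.47 ± 0.20 (SE, adjusted p = 9.3e-07), -0.96 ± 0.21 (SE, adjusted p = 0.00145) and -1.18 ± 0.22 (SE, adjusted p = 0.000270) at the 3 stages, and late control female 1, at 43.5 TPM, again lay with the ethanol-labelled livers. Without it the late difference was -1.40. All 12 calls of these 4 genes kept their direction and their call after rescaling. Sult1b1, which acts on thyroid hormones, was not called by diet label, with -0.25 ± 0.19 (SE, adjusted p = 0.341) at peak, 0.091 ± 0.20 (SE, adjusted p = 0.805) at early and -0.100 ± 0.20 (SE, adjusted p = 0.778) at late resolution. The other 7 Sult rows (Sult1c1, Sult2a4, Sult2a6, Sult2b1, Sult4a1, Sult6b1 and Sult6b2) had means under 0.5 TPM, with Sult1c1 at 0 in all libraries.

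Sult1e1 (chromosome 5, 87575969 to 87591594, minus strand), the estrogen sulfotransferase, had the largest sex-label difference of the 14 Sult genes tested. At peak, male ethanol-labelled livers had 11.8, 3.01, 15.9 and 11.3 TPM, against 0.0778, 0.117, 0.461 and 0.0884 TPM in female ethanol-labelled livers. Male control-labelled livers had 0.516, 0.761, 0.334 and 1.5 TPM, against 0.0543, 0.158, 0.124 and 0.175 TPM in female control-labelled livers. Neither pair overlapped. The male minus female difference was 3.84 ± 0.49 (SE, adjusted p = 2.3e-06) in ethanol-labelled livers, 4.13 (adjusted p = 3.3e-06) rescaled, and 0.95 ± 0.49 (SE, adjusted p = 0.278) in control-labelled livers, which was not called. The difference between these 2, tested after the values had been seen, was 2.89 ± 0.70 (SE, adjusted p = 0.0717), not called, and the pseudocount of 0.5 TPM compresses the control-labelled part of it. Averaged over sex labels Sult1e1 was higher in ethanol-labelled livers at peak by 1.54 ± 0.35 (SE, adjusted p = 0.00108) and differed by 0.38 ± 0.36 (SE, adjusted p = 0.533) at early and 0.0085 ± 0.38 (SE, adjusted p = 0.992) at late resolution. In the peak values above, the diet labels overlapped in female livers and did not in male livers. In ethanol-labelled livers Sult1e1 was lower at late resolution than at peak, with a late minus peak difference of -1.24 ± 0.38 (SE, adjusted p = 0.0164). At late resolution male livers had 2.27, 1.09 and 1.10 TPM and female livers 0.0418, 0.219 and 0.0520 TPM. The fall thus lay mainly in male livers, since female livers were under 0.5 TPM at both stages. The early minus peak difference was -0.97 ± 0.36 (SE, adjusted p = 0.0442), a call lost with a pseudocount of 0.1 TPM, at -1.0 (adjusted p = 0.155), and without any of 8 single libraries. With no filter (adjusted p = 0.0682) and with the replicate number as a block (adjusted p = 0.0554) it was lost too. The neutrophil and endothelial marker sums given above, as deposited, for the peak ethanol-labelled livers apply here too, and their part was not tested.

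Sult2a7 also differed by sex label. Male ethanol-labelled livers had 27.9, 8.35, 15.9 and 17.6 TPM at early resolution, against 2.25, 3.85 and 4.93 TPM in female ethanol-labelled livers, with a difference of 2.04 ± 0.41 (SE, adjusted p = 0.0151), and 1.96 (adjusted p = 0.00898) rescaled. The groups did not overlap. As deposited, the call was lost without early ethanol female 1 or 2 or early ethanol male 1, 3 or 4, with differences from 1.77 to 2.10. It was also lost with the early libraries fitted alone, at 2.04 (adjusted p = 0.119). At peak the difference was 1.10 ± 0.38 (SE, adjusted p = 0.0169), or 1.53 (adjusted p = 0.00130) rescaled, and was lost as deposited without peak ethanol female 1 or peak ethanol male 4. Sult1b1 rose in ethanol-labelled livers at early resolution relative to peak by 0.65 ± 0.20 (SE, adjusted p = 0.0147), and 0.46 (adjusted p = 0.0389) rescaled. Without early ethanol female 3 this was 0.51 (adjusted p = 0.0818), no longer called. The late minus peak difference was 0.60 ± 0.20 (SE, adjusted p = 0.0310), and 0.44 (adjusted p = 0.0604) rescaled, and its call was also lost without any of 7 single libraries, with adjusted p from 0.0505 to 0.0801. Sult2a5 differed by 2.40 ± 0.83 (SE, adjusted p = 0.418) between sex labels in ethanol-labelled livers at early resolution, not called, and by the same size with an adjusted p of 0.0149 without late control female 1. Likewise Sult2a8 differed by 0.50 ± 0.21 (SE, adjusted p = 0.0760) at early resolution relative to peak in ethanol-labelled livers, not called, with an adjusted p of 0.0278 without that library. The 6 Sult rows outside the members had median ethanol minus control differences of 1.53, 0.93 and 0.76 at the 3 stages, against all-gene medians given above.

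**Figure D5:**
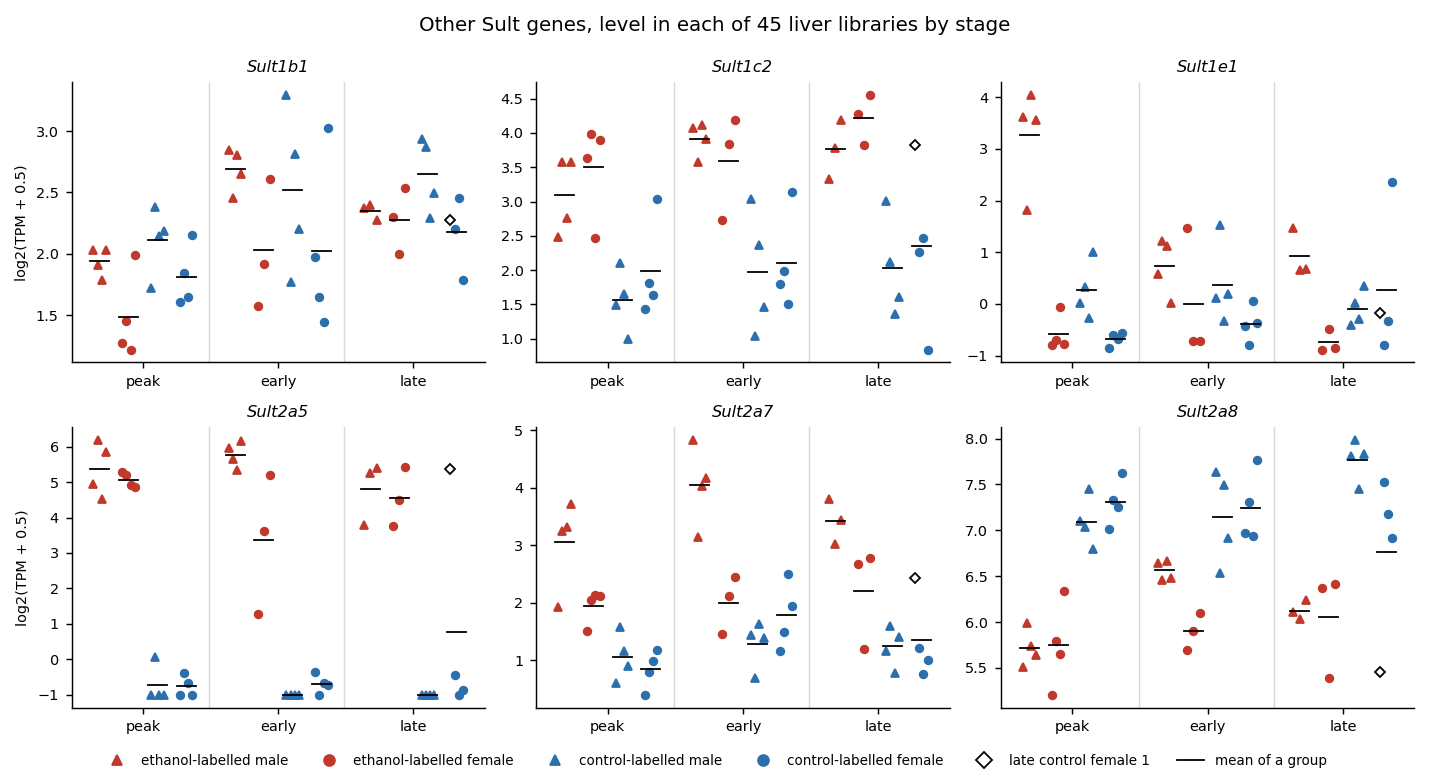
Level of the 6 other tested Sult genes as log2(TPM + 0.5) in every library, by stage, with ethanol-labelled (red) left of control-labelled (blue) and male-labelled (triangles) left of female-labelled (circles); lines are group means and the open diamond is late control female 1. Sult2a5 repeats the wide separation of the Sult2a members, Sult2a8 lies lower in ethanol-labelled livers (-1.47 at peak), and Sult1e1 splits by sex label at peak.

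The gene lists from here on were chosen with earlier results of these data known, so their p-values are given as description. By diet label 27.1%, 16.7% and 12.8% of all genes were called at peak, early and late resolution. Of 8 tested genes that supply or recycle the sulfonate donor PAPS, 1 higher and 0 lower (1 and 4 rescaled) were called by diet label at peak, 1 higher and 0 lower (1 and 1 rescaled) at early and 0 higher and 0 lower (0 and 1 rescaled) at late resolution. Their median difference was -0.035, 0.097 and -0.15. The one gene called as deposited was Papss2, the main PAPS synthase of liver. It averaged 132 ± 33.3 TPM (SD, n = 8) in ethanol-labelled and 72.9 ± 14.2 TPM (SD, n = 8) in control-labelled livers at peak, higher by 0.83 ± 0.19 (SE, adjusted p = 0.00137), and by 0.88 ± 0.20 (SE, adjusted p = 0.00215) at early resolution, or 0.75 (adjusted p = 9.8e-05) and 0.70 (adjusted p = 0.000925) rescaled. At late resolution it differed by 0.40 ± 0.21 (SE, adjusted p = 0.200). By stage in ethanol-labelled livers 3 higher and 0 lower (2 and 1 rescaled) were called at early and 3 higher and 0 lower (2 and 0 rescaled) at late resolution, with medians of 0.20 and 0.18. Over all genes 26.5% and 22% were called in these 2 comparisons by stage. Slc26a1, a sulfate transporter of the hepatocyte membrane, rose by 0.84 ± 0.18 (SE, adjusted p = 0.00159) at early and 1.01 ± 0.19 (SE, adjusted p = 0.000520) at late resolution relative to peak, or 0.64 (adjusted p = 0.000671) and 0.83 (adjusted p = 5.9e-05) rescaled. Slc35b2, which carries PAPS into the Golgi, rose by 0.80 ± 0.18 (SE, adjusted p = 0.00242) at early and 0.83 ± 0.19 (SE, adjusted p = 0.00267) at late resolution, or 0.60 (adjusted p = 0.00175) and 0.66 (adjusted p = 0.00116) rescaled. By sex label in ethanol-labelled livers at peak 0 higher and 2 lower (1 and 0 rescaled) were called. In that comparison 49.4% of all genes were called, and 8.58% of those calls were higher. Bpnt1, which breaks down the spent donor, went with -0.43 ± 0.15 (SE, adjusted p = 0.0162) as deposited and 0.017 (adjusted p = 0.930) rescaled, so its direction there rested on the scaling.

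Of 11 tested genes that take cysteine sulfur to sulfate or beside it, 1 higher and 3 lower (1 and 3 rescaled) were called by diet label at peak, 3 higher and 1 lower (1 and 1 rescaled) at early and 2 higher and 0 lower (1 and 1 rescaled) at late resolution, with medians of -0.12, 0.26 and 0.089. The shares called over all genes were 27.1%, 16.7% and 12.8%. Csad, which turns cysteine sulfinate toward taurine, was lower at peak and early resolution, with -1.81 ± 0.26 (SE, adjusted p = 1.7e-06) and -1.03 ± 0.27 (SE, adjusted p = 0.00722). Sqor, the mitochondrial sulfide oxidase, was higher by 0.60 ± 0.12 (SE, adjusted p = 0.000224), 0.53 ± 0.12 (SE, adjusted p = 0.00259) and 0.39 ± 0.13 (SE, adjusted p = 0.0378) at the 3 stages, and rescaled it was called at all 3. Ethe1, the persulfide dioxygenase, and Mpst, a sulfurtransferase, were lower at peak, with ethanol minus control differences of -0.98 ± 0.23 (SE, adjusted p = 0.00162) and -0.43 ± 0.14 (SE, adjusted p = 0.0187). Tst, the rhodanese, was higher at early resolution by 0.49 ± 0.12 (SE, adjusted p = 0.00593) and Cdo1, which oxidizes cysteine, by 0.54 ± 0.14 (SE, adjusted p = 0.00731). Rescaled, neither was called, at 0.31 (adjusted p = 0.0767) and 0.36 (adjusted p = 0.150). By stage in ethanol-labelled livers 4 higher and 1 lower (2 and 2 rescaled) were called at early and 3 higher and 0 lower (1 and 0 rescaled) at late resolution. The shares called over all genes by stage were 26.5% and 22%. By sex label at peak 1 higher and 4 lower (3 and 1 rescaled) were called in ethanol-labelled livers and 1 higher and 0 lower (2 and 0 rescaled) in control-labelled livers, where Got1, an aminotransferase, was higher in male livers by 1.42 ± 0.38 (SE, adjusted p = 0.00350) in ethanol-labelled and 1.37 ± 0.38 (SE, adjusted p = 0.0404) in control-labelled livers. Over all genes 49.4% and 2.9% were called in these 2 comparisons, with 8.58% and 12.3% of those calls higher.

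Sulfatases, which take sulfate off again, and the sulfotransferases of the Golgi, which act on proteins and glycans, were counted beside the cytosolic enzymes. By diet label 27.1%, 16.7% and 12.8% of all genes were called at the 3 stages, to set beside the counts of both lists. Of 10 tested sulfatases and their activators, 1 higher and 3 lower (1 and 4 rescaled) were called by diet label at peak, 1 higher and 1 lower (1 and 3 rescaled) at early and 0 higher and 1 lower (0 and 2 rescaled) at late resolution, with medians of -0.18, 0.039 and -0.033. Arsa, the lysosomal sulfatase of sulfatides, averaged 3.64 ± 2.17 TPM (SD, n = 8) in ethanol-labelled and 14.6 ± 5.41 TPM (SD, n = 8) in control-labelled livers at peak. Its ethanol minus control difference was -1.97 ± 0.16 (SE, adjusted p = 1.3e-11), -1.39 ± 0.17 (SE, adjusted p = 1.0e-07) and -1.49 ± 0.17 (SE, adjusted p = 7.5e-08) at the 3 stages. By sex label at peak 1 higher and 7 lower (1 and 3 rescaled) were called in ethanol-labelled livers and 1 higher and 2 lower (1 and 1 rescaled) in control-labelled livers. Over all genes 49.4% and 2.9% were called in these 2 comparisons, with 8.58% and 12.3% of those calls higher. By stage in ethanol-labelled livers 3 higher and 0 lower (2 and 0 rescaled) were called at early and 3 higher and 0 lower (2 and 0 rescaled) at late resolution. Of 11 tested Golgi sulfotransferases, 1 higher and 1 lower (2 and 3 rescaled) were called by diet label at peak, 1 higher and 0 lower (1 and 0 rescaled) at early and 1 higher and 0 lower (1 and 0 rescaled) at late resolution, with medians of -0.031, 0.017 and 0.050. Chst15, a chondroitin sulfotransferase, was higher by 1.00 ± 0.13 (SE, adjusted p = 3.5e-07) at peak and 0.63 ± 0.14 (SE, adjusted p = 0.00153) at early resolution. By sex label in ethanol-labelled livers at peak 0 higher and 9 lower (1 and 2 rescaled) were called, with a list median of -0.52, beside 5559 of 11244 genes (49.4%) called, 8.58% of them higher, and an all-gene median of -0.39. Chst13 and Gal3st1, which sulfonates galactose on lipids, were lower in male livers on both scales, with -0.93 ± 0.17 (SE, adjusted p = 0.000177) and -1.80 ± 0.39 (SE, adjusted p = 0.000595) as deposited. By stage in ethanol-labelled livers 2 higher and 0 lower (1 and 2 rescaled) were called at early and 3 higher and 0 lower (1 and 1 rescaled) at late resolution. Beside the stage counts of both lists, 26.5% and 22% of all genes were called.

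Of 21 tested receptors and transcription factors that are known to act on Sult genes or on sex-biased genes in liver, 5 higher and 2 lower (4 and 5 rescaled) were called by diet label at peak, 6 higher and 0 lower (5 and 0 rescaled) at early and 2 higher and 1 lower (2 and 2 rescaled) at late resolution, with medians of -0.012, 0.19 and 0.14. The shares called over all genes were 27.1%, 16.7% and 12.8%. Cux2, a transcription factor known to be female-biased in mouse liver, averaged 3.96 ± 3.30 TPM (SD, n = 8) in ethanol-labelled and 0.0613 ± 0.0668 TPM (SD, n = 8) in control-labelled livers at peak. It was higher by 2.68 ± 0.28 (SE, adjusted p = 3.0e-09), 3.30 ± 0.29 (SE, adjusted p = 7.4e-11) and 3.09 ± 0.30 (SE, adjusted p = 1.3e-09) at the 3 stages, and at late resolution by 3.31 without late control female 1. Cux2 passed the filter through libraries where it was high, so these p-values are description only. Prlr, the prolactin receptor, was higher by 2.04 ± 0.26 (SE, adjusted p = 2.1e-07), 2.28 ± 0.27 (SE, adjusted p = 7.6e-08) and 1.85 ± 0.28 (SE, adjusted p = 1.3e-05). Esr1, the estrogen receptor, was higher by 1.34 ± 0.16 (SE, adjusted p = 5.1e-08) at peak and 1.00 ± 0.17 (SE, adjusted p = 4.0e-05) at early resolution. Bcl6, a repressor known to be male-biased, was lower at late resolution with -1.64 ± 0.42 (SE, adjusted p = 0.00705). Hnf4a, a main activator of hepatocyte genes, was higher at peak by 0.59 ± 0.13 (SE, adjusted p = 0.000586), and the bile acid receptor Nr1h4 was lower there with -0.42 ± 0.092 (SE, adjusted p = 0.000778).

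By stage in ethanol-labelled livers 5 higher and 1 lower (3 and 1 rescaled) of these factors were called at early and 5 higher and 1 lower (5 and 3 rescaled) at late resolution, with medians of 0.20 and 0.37. The shares called over all genes by stage were 26.5% and 22%. Nr1h4 rose by 0.66 ± 0.096 (SE, adjusted p = 3.8e-05) at early and 0.54 ± 0.099 (SE, adjusted p = 0.000347) at late resolution relative to peak, or 0.46 (adjusted p = 0.00212) and 0.37 (adjusted p = 0.0133) rescaled. Hnf4a was lower than at peak, with -0.78 ± 0.13 (SE, adjusted p = 0.000132) and -0.70 ± 0.14 (SE, adjusted p = 0.000631), or -0.98 (adjusted p = 4.8e-05) and -0.87 (adjusted p = 0.000261) rescaled. Nr1i3, the xenobiotic receptor CAR, rose at early resolution by 0.80 ± 0.24 (SE, adjusted p = 0.0149), or 0.60 (adjusted p = 0.0160) rescaled. By sex label in ethanol-labelled livers 1 higher and 10 lower (1 and 4 rescaled) were called at peak, where 49.4% of all genes were called and 8.58% of those calls were higher, and 1 higher and 0 lower (1 and 0 rescaled) at late resolution, where 0.507% were called. At peak Cebpa was lower in male livers with -1.38 ± 0.33 (SE, adjusted p = 0.00133), or -0.93 (adjusted p = 0.00544) rescaled. At late resolution Esr1 was higher in male livers by 1.06 ± 0.26 (SE, adjusted p = 0.0476).

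The genes whose levels ran most like those of each member were found by Pearson r on log2(TPM + 0.5) over the 45 libraries, among genes outside the members with a mean of at least 5 TPM. The libraries fall into clusters by diet label and share stage and sex label, so r is a description, and the value within the 21 ethanol-labelled libraries is given second. For Sult2a1 they included Cyp2b13 (r = 0.98, 0.58 within) and Cyp2a4 (r = 0.98, 0.11 within), and for Sult2a2 Cyp2b13 (r = 0.98, 0.58 within) and Cyp2a4 (r = 0.98, 0.060 within). Cyp2b13 and Cyp2a4 encode cytochromes P450. For Cyp2a4 the likeness lay in the gap between the diet labels, with little left within the ethanol-labelled libraries. For Sult2a3 they were Sult2a5 (r = 0.98, 0.80 within), Eci3 (r = 0.97, 0.76 within) and Slc22a26 (r = 0.97, 0.59 within). For Sult3a1 they were Cyp3a44 (r = 0.96, 0.76 within), A1bg (r = 0.94, 0.77 within) and Cyp3a16 (r = 0.94, 0.71 within), and for Sult3a2 Cyp3a41b (r = 0.88, 0.74 within), Cyp3a16 (r = 0.84, 0.64 within) and A1bg (r = 0.83, 0.71 within); Cyp3a genes encode cytochromes P450. For Sult1a1 they were Ces1c (r = 0.88, 0.68 within), Inmt (r = 0.87, 0.67 within) and Cyp2a22 (r = 0.87, 0.58 within), for Sult1d1 Ces1b (r = 0.71, 0.54 within), Adk (r = 0.70, 0.43 within) and Asgr1 (r = 0.70, 0.58 within), and for Sult5a1 Kyat1 (r = 0.68, 0.65 within), Hsd17b2 (r = 0.66, 0.54 within) and Keg1 (r = 0.66, 0.62 within).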

How the data were processed

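Bulk RNA sequencing of mouse liver was deposited as one table of 24972 rows and 45 library columns. Its values, made by the authors, were taken as TPM (length-corrected read shares) and used as deposited. The equal column sums show shares of a total, but do not by themselves show the length correction. No label names the aligner, counter or annotation release; the genome build mm10 comes from the submitters' processing notes. Of the rows, 26 whose names a spreadsheet had turned into dates were left out, with 0.0441% of the TPM. Sequencing depth cannot be had from TPM, so no counting interval is given.

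The members and gene lists were chosen with earlier results of these data known. Groups came from stage, diet label and sex label. limma 3.58.1 in R 4.3.3 was fitted to log2(TPM + 0.5) of the 11244 genes with a mean of 0.5 TPM or more, with 1 mean per group and a mean-variance trend. Benjamini-Hochberg adjustment ran over all genes within a comparison. A fold change on this scale understates the change of low genes. The script was tested on simulated data. No 2 libraries held identical values. Intervals are 95% intervals from the same fit. Alternatives were pseudocounts of 0.1 and 2 TPM, no filter, a filter at 5 TPM, rescaling by medians of ratios, the stages of a comparison alone, a replicate block, and each library left out. Named genes were the 8 members, all other Sult genes, up to 5 genes per list with the smallest p in a comparison, and the 3 genes most like each member. A few genes that this rule names are not reported here. Other genes are named only as markers or after their values were seen. Positions are from GENCODE M21 and sequences from RefSeq on GRCm38.p6.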

Additional observations from a re-analysis of the deposited data

Results flagged for a closer look

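Within a group of 4 libraries, a library far from the other 3 was looked for in the 8 members, 72 group and member combinations in all, and 17 had one by Dixon's ratio at its 95% critical value of 0.829. Chance alone flags about 1 in 20 such groups where values follow a normal curve, and 6 of the 17 were one library, late control female 1. Where the other 3 libraries were all at 0, any value above 0 is flagged, so the 17 cannot be set against that rate.

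Late control female 1 was far above the other 3 late female controls in Sult2a1 (705 TPM), Sult2a2 (886 TPM), Sult2a3 (75.7 TPM), Sult3a1 (9.0 TPM) and Sult3a2 (0.738 TPM), and far below them in Sult5a1 (7.63 TPM). Its Xist level was 39.5 TPM and Eif2s3y was listed at 0, unlike the other 23 control-labelled libraries. What set this library apart was not tested.

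Peak control female 2 stood out in Sult2a2 (16.6 TPM) and Sult2a3 (2.60 TPM), and peak control male 2 in Sult2a1 (4.71 TPM) and Sult3a2 (0.0325 TPM). Xist stood at 0.349 TPM and 0.135 TPM in these libraries, among the 5 highest of the control-labelled libraries. The other low-level cases were Sult2a3 in early control male 1 (0.121 TPM), Sult3a2 in early control male 2 (0.0468 TPM), and Sult3a1 (0.0189 TPM) and Sult3a2 (0.0311 TPM) in late control male 3, each beside values at or near 0. Sult1d1 was highest in peak ethanol female 2 (6.33 TPM) and in peak control female 4 (5.99 TPM), and Sult5a1 in early ethanol male 2 (29.3 TPM).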

How the results depend on the processing

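Counts of genes called over the whole table moved by more than 1.5 times in these cases. With a pseudocount of 2 TPM, 245 genes were called by sex label in control-labelled livers at late resolution. With no filter, 32 were called by sex label in ethanol-labelled livers at early resolution. With a filter at 5 TPM, which leaves fewer genes to test, 1617, 1075 and 914 were called by diet label at peak, early and late resolution; by sex label, 3054 at peak and 34 at late resolution in ethanol-labelled livers, and 214, 4 and 54 at the 3 stages in control-labelled livers; by stage, 1663 and 1366 at early and late resolution in ethanol-labelled livers, and 45 and 24 in control-labelled livers. Rescaled by medians of ratios, 2374 were called by diet label at late resolution, 3536 by sex label in ethanol-labelled livers at peak, 99 and 487 by sex label in control-labelled livers at early and late resolution, and 262 and 142 by stage in control-labelled livers. With the stages of a comparison alone, 727 were called by diet label at late resolution, 7 and 20 by sex label in ethanol-labelled livers and 3 and 15 in control-labelled livers at early and late resolution, and 51 at early resolution relative to peak in control-labelled livers. Apart from the filter at 5 TPM, the cause was not tested.

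The replicate numbers were not taken to pair the libraries. Deviations of same-numbered libraries correlated with a median of -0.053 across diet labels (21 pairs, -0.37 to 0.25), -0.023 across sex labels (22 pairs, -0.43 to 0.53) and -0.026 across stages (43 pairs, -0.48 to 0.49), with 7, 6 and 13 pairs over 0.1. All 4 female pairs across diet labels at peak were over 0.1, at 0.11 to 0.22, but the 4 male pairs of that comparison stood at -0.21 to -0.067. With the number as a replicate block, on 42 to 44 libraries, 580 genes were called by diet label at late resolution, 8 and 26 by sex label in ethanol-labelled livers at early and late resolution, 24 by sex label in control-labelled livers at late resolution, and 54 and 215 at early and late resolution relative to peak in control-labelled livers.

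Leaving out each library in turn gave 2572 to 3344, 1123 to 3016 and 966 to 2098 genes by diet label at peak, early and late resolution. By sex label the ranges were 4087 to 6148, 3 to 112 and 3 to 87 in ethanol-labelled livers and 120 to 503, 0 to 54 and 1 to 823 in control-labelled livers. By stage they were 1353 to 4813 at early and 1633 to 2855 at late resolution in ethanol-labelled livers, and 26 to 124 and 7 to 904 in control-labelled livers. The extremes at early resolution came from early ethanol female 1 (highest count by diet label and by stage) and early ethanol female 2 (lowest).

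No call of a Sult gene changed direction under any of these settings. Calls of single Sult genes were lost in 12 and gained in 7 results over the 7 settings, and lost in 36 and gained in 9 of 7110 results with a library left out. The calls of Sult3a1 at peak by sex label and of Sult3a1 and Sult3a2 by stage in ethanol-labelled livers held under the settings in which the gene was tested, which for Sult3a2 leaves out the filter at 5 TPM. Those of Sult5a1 and the late call of Sult3a2 did not. TPM near 0, as of the Sult2a and Sult3a genes in control-labelled livers, rest on unknown numbers of reads.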
